A study of Mus musculus with 217 samples.

Results

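The genes described here are 45 interferon-stimulated genes (ISGs), named by symbol as a list, with no measured value in the rule, and all 45 were found among the 52550 genes of the deposited count tables. They comprise 19 antiviral effectors, 5 oligoadenylate synthetase (OAS) genes, 3 genes of the ISG15 system, 4 nucleic acid sensors, 5 transcription factors, 3 genes of the PARP group and 6 immunity-related GTPases. Ribosome-bound RNA of endothelial cells (ECs) was pulled down by an HA tag and sequenced, in 3 tissues (brain, lung and heart), from Cdh5CreERT2/+; Rpl22HA/+ mice, in which the VE-cadherin (Cdh5) promoter drives a tamoxifen-inducible Cre that switches on an HA-tagged ribosomal protein. All groups carried both alleles and received tamoxifen by gavage at 4 to 6 weeks of age. Mice received 10 mg/kg lipopolysaccharide (LPS) by intraperitoneal injection and were sampled 6, 24, 48, 72 and 168 hr later. By the study's methods, mice injected with PBS were the controls, labelled 0 hr. The labels do not say which libraries came from the same mouse, so p-values measure the spread between these libraries. In brain and in heart 5, 5, 4, 6, 4 and 4 libraries were used at 0, 6, 24, 48, 72 and 168 hr, and in lung 4, 4, 2, 6, 4 and 4.

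ISGs are the genes switched on when a cell senses interferon. Type I interferon acts through the kinases Jak1 and Tyk2 on a complex holding Stat2 and Irf9 that binds the interferon-stimulated response element (ISRE), whereas interferon gamma acts through the kinases Jak1 and Jak2 on the gamma-activated site (GAS). LPS is read by Tlr4, whose Ticam1 branch leads through Tbk1 and Irf3 to interferon beta, and vascular endothelium is exposed directly to LPS and to interferon in blood.

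Sequence around the start sites of these genes is shown because the ISRE and GAS letters are the feature that the list's name refers to. RefSeq promoter entries (GRCm38.p6, 250 bases before to 50 bases after a start site) were at hand for 34 of the 45 genes, with 41 entries. The ISRE core was searched as GAAA, any 2 bases and GAAA, and the GAS core as TTCNNNGAA, on both strands, and overlapping matches were each counted. The ISRE core was in 20 of the 41 entries (48.8%), against 3.44% of all 32851 promoters of the same length, and the GAS core in 12 (29.3%), against 8.3%. A match is a description of letters and not evidence of a site in use. The lines below give each match with up to 20 bases on either side, 5′ to 3′ on the gene's strand, with matched letters in capitals. Isg15, Ifit1, Rsad2 and Oas1a are effectors or tags with an ISRE match, Igtp, Irgm2, Tgtp1 and Tgtp2 are immunity-related GTPases with a match of each motif, and Irf1 and Irf8 are transcription factors with the GAS core alone.
Isg15: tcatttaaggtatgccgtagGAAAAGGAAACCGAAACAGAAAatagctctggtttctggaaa
Ifit1: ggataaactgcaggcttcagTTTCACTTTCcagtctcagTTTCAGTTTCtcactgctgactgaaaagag
Rsad2: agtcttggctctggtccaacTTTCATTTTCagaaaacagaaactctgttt
Oas1a: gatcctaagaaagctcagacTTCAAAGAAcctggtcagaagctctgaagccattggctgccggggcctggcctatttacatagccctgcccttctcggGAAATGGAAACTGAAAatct
Igtp: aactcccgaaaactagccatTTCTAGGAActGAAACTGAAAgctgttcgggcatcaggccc
Irgm2: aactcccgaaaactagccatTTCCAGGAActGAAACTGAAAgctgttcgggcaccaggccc
Tgtp1: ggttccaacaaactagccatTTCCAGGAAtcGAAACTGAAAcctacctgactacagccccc
Tgtp2: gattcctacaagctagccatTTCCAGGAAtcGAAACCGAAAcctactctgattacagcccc
Irf1: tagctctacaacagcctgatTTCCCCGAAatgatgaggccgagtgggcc
Irf8: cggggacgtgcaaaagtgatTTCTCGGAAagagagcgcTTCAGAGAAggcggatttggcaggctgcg

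The stretches lie at chr4:156200855-156200916 (minus strand) for Isg15, chr19:34640765-34640833 (plus) for Ifit1, chr12:26456543-26456592 (minus) for Rsad2 and chr5:120907526-120907643 (minus) for Oas1a. Those of the GTPases lie at chr11:58199491-58199551 (plus) for Igtp, chr11:58214882-58214942 (plus) for Irgm2, chr11:48992294-48992354 (minus) for Tgtp1 and chr11:49064253-49064313 (minus) for Tgtp2. Those of the transcription factors lie at chr11:53769904-53769952 (plus) for Irf1 and chr8:120736167-120736233 (plus) for Irf8. All 10 lie upstream of the annotated start site, that of Oas1a being cut there. Entries of Ifih1, Ddx58, Trim30a, Ifitm3 and Eif2ak2, not printed, hold an ISRE match after the start site. Isg15, which encodes a ubiquitin-like tag, holds 3 ISRE matches that overlap into 1 run, and Ifit1, which encodes an RNA-binding antiviral protein, holds 2 that do not overlap. In Igtp, Irgm2, Tgtp1 and Tgtp2 the ISRE match begins 11 bases after the GAS match begins, an arrangement found in 5 of all 32851 promoters (0.0152%), 4 of them those of these genes. That spacing was noticed in the sequences first, and the 4 genes are related copies that share much of the flanking sequence.

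**Figure D1:**
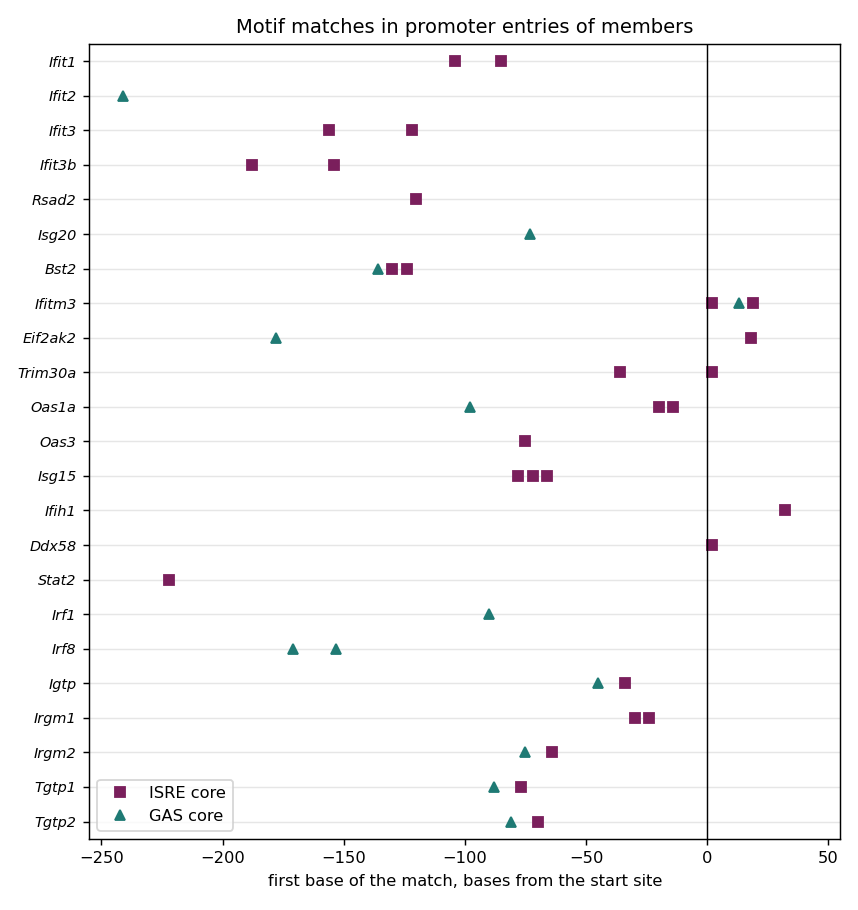
Position of the first base of each ISRE core and GAS core match against the start site, in bases, for the 23 genes with at least 1 match among the 34 with a promoter entry. The 4 GTPases Igtp, Irgm2, Tgtp1 and Tgtp2 show both motifs side by side. Bst2 and Ifitm3 show both motifs with an overlap, and Oas1a and Eif2ak2 hold both further apart.

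Counts on genes per library ran from 284457 to 43417945, with medians of 23645892 in brain, 24082214 in heart and 11376798 in lung. Genes took a median of 60.6% of reads in brain, 63.4% in heart and 28.6% in lung, the last with a range of 3.4% to 61.0%. All 10 endothelial markers checked, among them Pecam1, Cdh5 and Kdr, were detected in brain, lung and heart at 0 hr, but markers of the surrounding tissue were present too. In brain at 0 hr neuron markers summed to 1107 to 4460 CPM (counts scaled to library size, median 2789) and oligodendrocyte markers to 653 to 5174 CPM (median 3451), against 1796 to 3730 CPM for the endothelial markers (median 2419). Cardiomyocyte markers summed to 2593 to 4939 CPM in heart at 0 hr and alveolar epithelial markers to 2085 to 8859 CPM in lung. In such bulk pulldowns fewer cells of a type and less RNA per cell cannot be told apart. File names fell into 4 patterns, called library series 1 to 4 here, which entered every fit as a covariate. Series 4 holds no 0 hr or 6 hr library.

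The 3 groups of libraries at 6 hr each held 1 that stood apart from the rest. Counts of calls at 6 hr are given with and without these libraries, and so are the values of the genes that lead each group. The libraries were picked for low levels of these same genes. Larger changes and added calls at 6 hr without them follow in part from that choice and are not separate support. The mean level of the 45 ISGs, in log2 CPM, was 4.33 in the library labelled brain 6 hr replicate 6 against 5.79 to 7.05 in the other 4 brain libraries at 6 hr. It was 6.57 in heart 6 hr replicate 5 against 8.29 to 8.90 in the others. It was -0.49 in lung 6 hr replicate 4 against 5.80 to 7.10, and that library had the lowest depth of all, 284457 counts. It held 39 counts on the whole list, with 31 of the 45 genes at 0, and its TMM scaling factor of 0.122 was the lowest of all libraries and made 1 count worth 28.9 CPM in place of 3.52 on its total alone, so its values rest on single reads. All 3 are of series 1. The part of the file name read here as the mouse is the same in all 3, so 1 shared mouse is an inference that the labels do not state. Within series 2 the median gene was 2.91 higher at 6 hr than at 0 hr in brain, 2.68 in lung and 2.95 in heart on the log2 scale, whereas within series 1 the difference was -0.03 in brain, 0.64 in heart and -6.15 in lung. Lung 0 hr replicate 4 stood apart in the other direction, at a mean of 5.04 against 3.37 to 3.76 in the other 3.

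At 6 hr after LPS nearly the whole list was higher in brain and in heart ECs. In brain 43 of the 45 genes were higher than at 0 hr and 0 lower, with a median log2 fold change of 2.57, or 5.92-fold, where the median of all 19234 genes tested was 0.00 and 4.21% of them were called higher. In heart 44 were higher and 0 lower, with a median of 2.72, or 6.59-fold, where 22.4% of all 16024 genes tested were called higher and the median of all genes was -0.05. In lung 12 were higher and 0 lower, with a median of 2.05, or 4.14-fold, where 2.56% of the 17058 genes tested were called higher and the median of all genes was -0.42. Without the 3 libraries that stood apart the numbers of higher genes were 44 in brain (median 2.98), 21 in lung (2.47) and 44 in heart (3.07), where 7.63%, 2.38% and 27.8% of all genes were called higher. Stat2 in brain and Samd9l in heart then gained a call and Tgtp2 in heart lost one. The lung count depended on single libraries: it was 5 without 0 hr replicate 2 and 5 without 0 hr replicate 3, 21 without 0 hr replicate 4, 27 without 6 hr replicate 3 and 21 without 6 hr replicate 4. RLE scaling in place of TMM raised the median of all lung genes at 6 hr by 0.308 and the number of higher ISGs to 29, and relative to the median of all genes the list stood higher under either scaling.

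**Figure D2:**
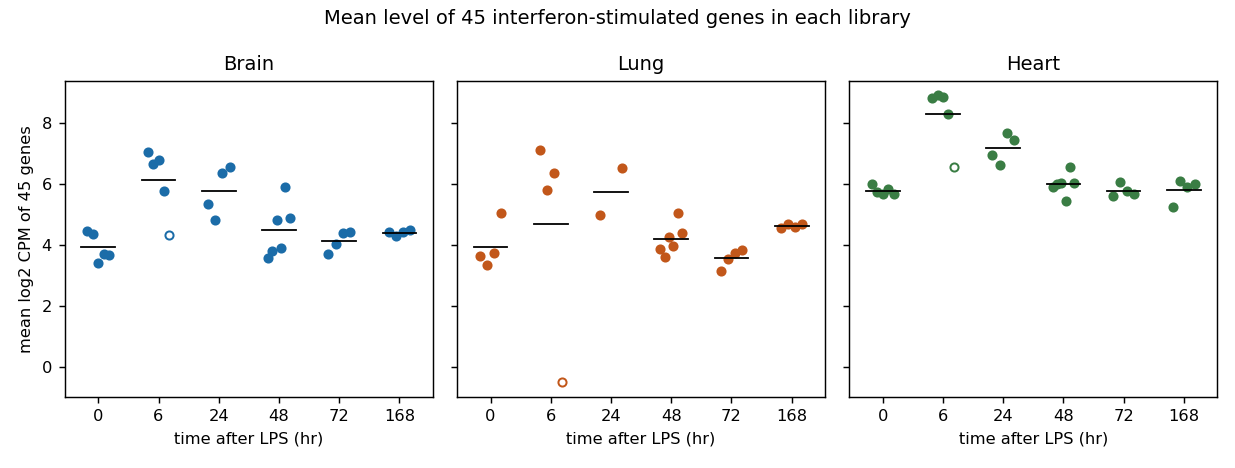
Mean log2 CPM of the 45 ISGs in each library against hours after LPS (0, 6, 24, 48, 72, 168), 1 panel per tissue, with a line through group means. Open circles are the 3 libraries of series 1 labelled 6 hr, at 4.33 in brain, -0.49 in lung and 6.57 in heart, below the other libraries of their groups.

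Among the antiviral effectors, 18 of 19 were higher in both brain and heart at 6 hr and 6 in lung, with medians of 2.77, 2.79 and 2.09 on the log2 scale. With the libraries that stood apart left out, 18, 19 and 8 were higher, with medians of 3.18, 3.08 and 2.38. Mx1, a dynamin-like GTPase that blocks virus replication, had the largest log2 fold change of the list in brain, 5.50 (SE 0.90, adjusted p = 0.00043). Its libraries stood at 0.23, -0.20, -0.19, -1.70 and -0.48 log2 CPM at 0 hr and at 5.73, 4.65, 5.49, 4.25 and -1.05 at 6 hr. Every 6 hr library but replicate 6 was above all 0 hr libraries, and without that library the log2 fold change was 6.05 (SE 0.65). In lung its paralog Mx2, annotated as a polymorphic pseudogene, led with 6.50 (SE 1.39, adjusted p = 0.0071). Lung Mx2 read 1.27, -3.35, -1.23 and 1.42 log2 CPM at 0 hr and 6.15, 4.87, 2.82 and -3.35 at 6 hr, where -3.35 stands for 0 counts. The groups overlapped only through the 6 hr replicate 4 library, and the value without it was 7.31 (SE 1.37).

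Ifit2, an RNA-binding protein of the IFIT family, rose by 3.39 (SE 0.56) in brain, 5.07 (SE 0.99) in lung and 2.04 (SE 0.34) in heart. Its log2 CPM in brain went from 5.83, 5.18, 4.22, 4.35 and 4.28 to 8.84, 7.83, 8.29, 6.90 and 5.38. In lung it went from 2.49, 1.30, 1.52 and 3.11 to 8.66, 8.08, 3.28 and -3.35, with 2 of the 4 libraries far above the 0 hr group. In heart it went from 7.83, 7.72, 7.61, 8.05 and 7.62 to 9.73, 10.53, 9.93, 9.10 and 9.26, with no overlap, replicate 5 included. Rsad2, which encodes the radical-SAM enzyme viperin, rose by 4.80 (SE 0.95) in brain, 5.78 (SE 1.21) in lung and 3.58 (SE 0.48) in heart. Leaving out the libraries that stood apart gave 3.85, 5.66 and 2.19 for Ifit2 and 5.30, 6.40 and 3.99 for Rsad2 in brain, lung and heart. Ifitm3, a membrane protein that hinders virus entry, rose by 2.51 (SE 0.42) in brain and 2.57 (SE 0.37) in heart and was not called in lung (1.22, adjusted p = 0.34), values that were 2.91, 2.94 and 1.81 without those libraries. The genes of the effector group that were not called were Ifi27l2a in brain (0.25, adjusted p = 0.76) and Samd9l in heart (0.47, adjusted p = 0.082), the latter called without the library that stood apart (0.56, adjusted p = 0.042).

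The OAS genes, whose enzymes make the oligoadenylates that activate RNase L, were all higher in brain and in heart, 5 of 5 in each, and 2 of 5 in lung, with medians of 2.81, 3.10 and 3.04 (5, 5 and 3 genes and 3.24, 3.53 and 2.85 without the libraries that stood apart). Oas3 in heart stood at 2.44, 0.11, 0.92, 1.30 and 0.32 log2 CPM at 0 hr and at 6.21, 6.76, 6.09, 6.51 and 0.96 at 6 hr. Its log2 fold change was 4.91 (SE 0.79, adjusted p = 8.1e-05), and 4 of 5 libraries were above every 0 hr library (5.43 without replicate 5). Oas3 and Oasl1, the latter an enzymatically inactive relative, were the 2 called in lung, at 4.35 and 4.66. Reads of Oas1a may be shared with its near-identical family copies and are uncertain for that reason.

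The ISG15 system, which couples and removes the ubiquitin-like Isg15, was higher as a whole in brain and heart, 3 of 3 each, and in 0 of 3 in lung by edgeR (3 of 3 at an unadjusted p under 0.05), with medians of 2.79, 3.15 and 2.12. The lung count was 2 of 3, Isg15 and Usp18, without replicate 4, and the medians without the libraries that stood apart were 3.21, 3.57 and 2.56. Isg15 in heart read 5.91, 6.04, 5.61, 5.77 and 6.08 log2 CPM at 0 hr and 11.04, 10.42, 10.52, 9.74 and 6.88 at 6 hr, so the groups did not overlap (log2 fold change 4.21, SE 0.47, adjusted p = 9e-06). In brain it read 6.02, 5.66, 5.31, 6.00 and 5.40 at 0 hr and 9.82, 8.51, 9.13, 8.22 and 5.86 at 6 hr (2.99, SE 0.48, adjusted p = 0.00036). In lung it read 5.77, 4.77, 6.73 and 6.83 at 0 hr and 8.59, 7.51, 8.90 and -3.35 at 6 hr (2.25, SE 0.80, adjusted p = 0.094). The 3 lung libraries at 6 hr other than replicate 4 were above all 0 hr libraries. For replicate 2 this rests on its low scaling factor of 0.250. That factor made 1 count worth 1.455 CPM in place of 0.364 on its total alone. Without replicate 4 the log2 fold change was 2.79 (adjusted p = 0.020). In heart and brain it was 4.66 and 3.43 without the library that stood apart. Usp18, the protease that removes Isg15 and dampens interferon receptor signalling, rose by 2.79 (SE 0.41) in brain and 3.14 (SE 0.37) in heart. Herc6, the main ligase for Isg15 in mouse, rose by 1.89 (SE 0.53) in brain and 3.15 (SE 0.42) in heart, and it shares 1269 exon bases with a predicted gene on the same strand, so its count is uncertain.

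Of the nucleic acid sensors, 4 of 4 were higher in brain and in heart and 1 of 4, Zbp1, in lung. Zbp1, which binds Z-form nucleic acid and can trigger necroptosis, was the gene with the largest log2 fold change in heart, 5.49 (SE 0.67, adjusted p = 1.1e-05), and rose by 5.39 (SE 0.71) in brain and 3.57 (SE 0.71) in lung. Its heart libraries went from 4.21, 3.65, 3.00, 3.19 and 3.25 log2 CPM to 9.19, 9.23, 9.64, 9.03 and 4.21, with replicate 5 at the level of the highest 0 hr library. Zbp1 rose by 6.00 in heart, 5.89 in brain and 4.07 in lung with the libraries that stood apart left out, and 4, 4 and 1 sensors were called. The RNA helicase Ddx58 (RIG-I) rose by 1.77 in brain and 2.09 in heart, and its relative Ifih1 by 2.05 and 1.44. Dhx58, their regulatory relative without the signalling domain, rose by 2.57 and 3.19.

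Of the transcription factors, 5 of 5 were higher in heart, 4 in brain and 1 in lung (5, 5 and 1 without the libraries that stood apart). Irf7, which amplifies interferon transcription, was the one called in lung, from 2.05, 2.86, 3.14 and 4.80 log2 CPM to 8.52, 7.34, 7.76 and 6.44 (4.29, SE 0.76, adjusted p = 0.002). The 3 deeper lung libraries at 6 hr were above every 0 hr library. The 6.44 of replicate 4 rests on 3 counts and on its low scaling factor: by total count alone it was 3.40, below the 4.86 of 0 hr replicate 4. Without replicate 4 the log2 fold change of Irf7 was 4.72 (SE 0.76, adjusted p = 0.0011). Irf8, known mainly from myeloid and lymphoid cells, rose by 4.06 (SE 0.63) in heart and 2.60 (SE 0.62) in brain, or by 4.52 and 2.98 without the libraries that stood apart. Irf9 and Stat2, which act in 1 complex under type I interferon, had some of the smallest changes. Irf9 rose by 0.78 (SE 0.20) in brain and 1.37 (SE 0.16) in heart, and Stat2 by 1.59 (SE 0.21) in heart, while in brain Stat2 was at 1.00 (SE 0.37, adjusted p = 0.11), called without the library that stood apart (1.26, adjusted p = 0.021).

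The PARP group, of which Parp9 and the ubiquitin ligase Dtx3l act as a complex, was higher in 3 of 3 in brain and heart and in 0 of 3 in lung (3 of 3 at an unadjusted p under 0.05), with medians of 1.84, 2.42 and 1.95. All 3 were called in lung without replicate 4, and the medians without the libraries that stood apart were 2.19, 2.76 and 2.47. Parp9 and Dtx3l overlap by 458 exon bases on opposite strands, and whether counting used strand is not given in the sources used here, so their counts cannot be fully told apart. The immunity-related GTPases, which act on the vacuoles of intracellular pathogens, were higher in 6 of 6 in brain and heart and in 2 of 6 in lung, Iigp1 and Irgm1, with medians of 2.50, 2.38 and 2.25. These became 6, 5 and 3 of 6 in brain, heart and lung, with medians of 2.98, 2.71 and 2.80, when the libraries that stood apart were left out. Igtp and Irgm2 share 162 exon bases on the same strand, and Tgtp1 and Tgtp2 are near-identical, so that their separate values are uncertain.

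**Figure D3:**
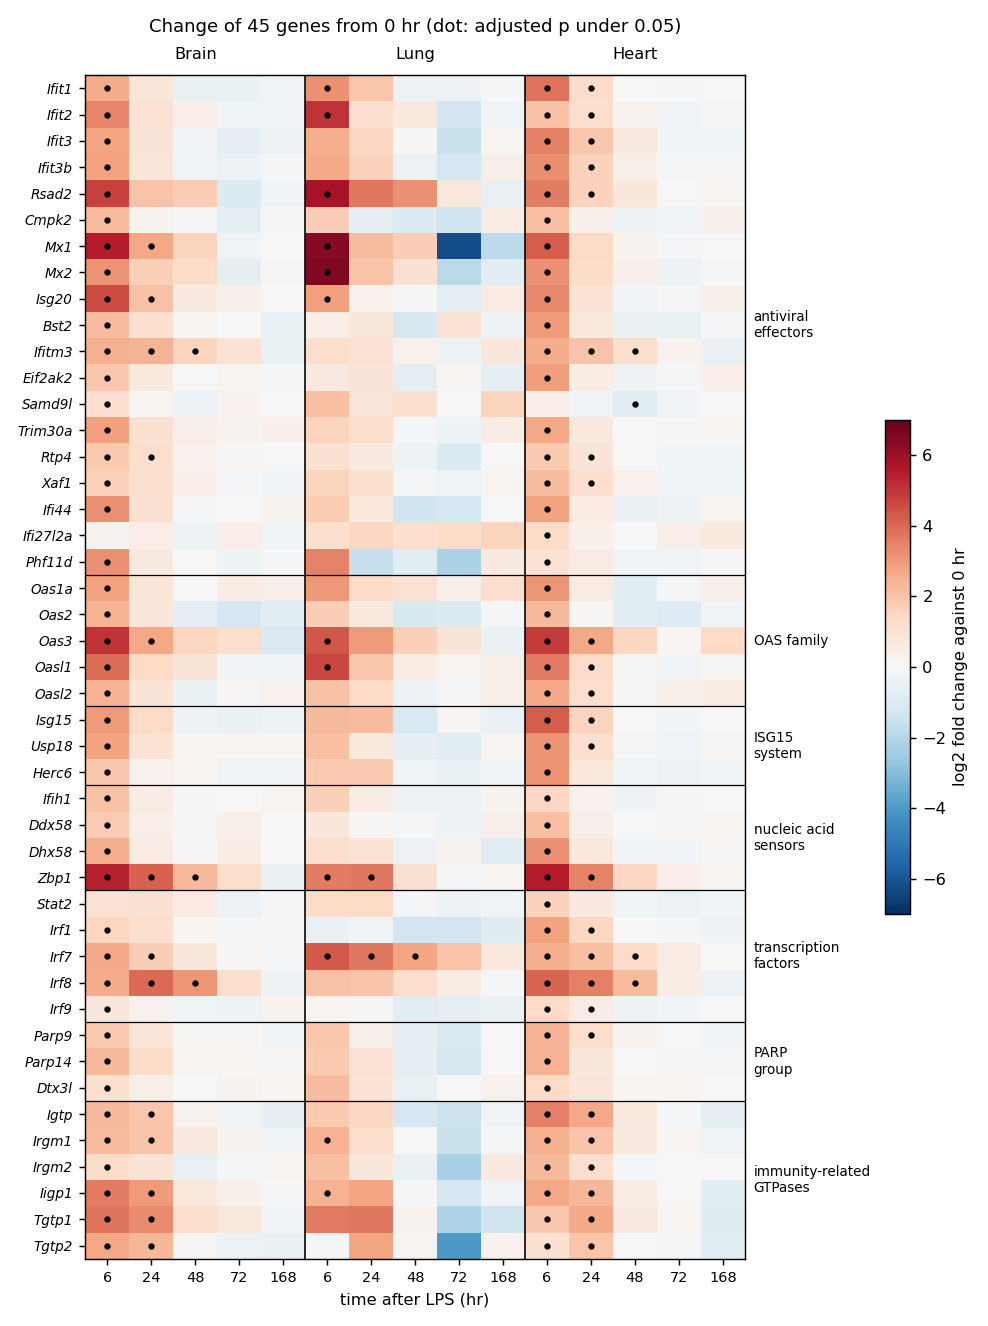
Log2 fold change against 0 hr for each of the 45 ISGs (lines, by role) at 5 time points in brain, lung and heart (15 columns), with a dot where the adjusted p is under 0.05. Calls fill the 6 hr columns of brain (43 of 45) and heart (44 of 45), thin out at 24 hr and are absent at 72 and 168 hr.

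At 24 hr the list had fewer calls, and in brain and heart the immunity-related GTPases held most of theirs. In brain 13 of 45 genes were higher and 0 lower than at 0 hr (median 1.06, 2.08-fold), where 6.52% of all genes were called higher and their median was -0.03. In heart 25 were higher and 0 lower (median 1.19, 2.29-fold), where 9.07% of all genes were called higher and their median was -0.04. In lung, with 2 libraries, 2 were higher, Zbp1 and Irf7, both by 3.68 (median of the list 1.21), where 0.363% of all genes were called higher. Of the GTPases 5 of 6 were higher in brain (median 2.17) and 6 of 6 in heart (median 2.15), against 4 and 8 of 19 effectors, 1 and 3 of 5 OAS genes and 0 and 2 of 3 in the ISG15 system (in brain 2 of these 3 at an unadjusted p under 0.05). The brain count was 23 without the libraries that stood apart, where 7.46% of all genes were called higher. The heart count was 28 without them, where 13.3% of all genes were called higher, and 16 without heart 24 hr replicate 1. The 2 lung calls were lost when either 24 hr library or 0 hr replicate 1, 2 or 3 was left out.

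Iigp1 in heart showed the GTPase pattern, at 8.34, 7.70, 7.45, 7.77 and 7.01 log2 CPM at 0 hr, 10.65, 10.89, 10.69, 10.02 and 8.63 at 6 hr and 9.80, 9.21, 11.29 and 10.91 at 24 hr. All 24 hr libraries were above all 0 hr libraries, and the log2 fold change from 0 hr was 2.30 (SE 0.45, adjusted p = 0.0029) after 2.73 at 6 hr. Tgtp1 in heart read 3.83, 2.68, 3.02, 3.23 and 2.48 at 0 hr, 3.71, 6.09, 3.35, 5.28 and 4.33 at 6 hr, and 5.82, 4.88, 6.95 and 6.67 at 24 hr. Its 6 hr libraries overlapped the 0 hr ones and its 24 hr libraries did not. In contrast Isg15 in heart stood at 7.33, 7.38, 7.67 and 7.56 at 24 hr, above all 0 hr libraries (1.56, SE 0.45, adjusted p = 0.025) and below the 4 higher libraries at 6 hr. The 2 higher libraries of Iigp1 and Tgtp1 at 24 hr, replicates 4 and 5, are of series 4, which has no 0 hr or 6 hr library. For Iigp1 the 24 hr library of series 2, replicate 2, stood at 9.21, below the 4 of that series at 6 hr (10.02 to 10.89).

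Irf8 and Zbp1 also kept high levels at 24 hr. Irf8 in brain went from -0.01, 0.14, 1.32, 1.41 and 1.98 log2 CPM at 0 hr to 4.05, 4.47, 4.23, 3.73 and 0.64 at 6 hr and 4.43, 4.51, 6.48 and 5.95 at 24 hr. Every 24 hr library was above every 0 hr library, with a log2 fold change of 3.98 (SE 0.71, adjusted p = 0.0012), and within series 1 and series 2 the difference was 4.36 and 2.94. Zbp1 in brain stood at 6.11, 5.76, 7.78 and 7.88 at 24 hr against 1.60 to 2.36 at 0 hr, a log2 fold change of 4.14 (SE 0.69, adjusted p = 0.00067). The 2 higher libraries of both genes at 24 hr, replicates 4 and 5, are of series 4, which has no 0 hr library to set them against. The 3 fibroblast markers, Col1a1, Dcn and Pdgfra, summed to 3652, 1189, 3917 and 4100 CPM in replicates 1, 2, 4 and 5 at 24 hr against 322 to 999 at 0 hr, 1 of the 3, Dcn, being called higher, and their part in these values was not tested.

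Compared directly with 6 hr, the list was lower at 24 hr in heart. There 23 of 45 genes were called lower and 0 higher (median -1.64, 0.322-fold), against 2.92% of all genes called lower. By group these were 10 of 19 effectors, 4 of 5 OAS genes, 3 of 3 of the ISG15 system, 3 of 4 sensors, 2 of 5 transcription factors, 1 of 3 of the PARP group and 0 of 6 GTPases, of which 1 had an unadjusted p under 0.05 and whose median was -0.45. Isg15 fell by 2.66, Oas1a by 2.54, Ifit1 by 2.50 and Dhx58 by 2.46 on the log2 scale, while Tgtp1 stood at 0.75 and Tgtp2 at 0.87, neither called. The count was 0 without heart 24 hr replicate 2. It was 36 without heart 6 hr replicate 5, where 15.2% of all genes were called lower. In brain edgeR called 0 genes between 24 and 6 hr (median -1.33), where 0.291% of all genes were called. In that comparison 29 had an unadjusted p under 0.05 and 17 were lower by DESeq2. Without brain 6 hr replicate 6, 25 were lower, where 0.494% of all genes were called lower. In lung edgeR called 0 (median -0.81; 0.00586% of all genes called), with 5 at an unadjusted p under 0.05 and 3 lower by DESeq2.

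By 48 hr the list stood at a median change from 0 hr of 0.16 in brain, 0.00 in heart and -0.15 in lung, but the libraries varied. The mean level of the list in brain was 3.57, 3.80, 4.84, 3.91, 5.89 and 4.88 log2 CPM in replicates 1, 2, 3, 4, 6 and 7, with 3 of the 6 above every 0 hr library (3.41 to 4.48). In heart it was 6.54 in replicate 6 and 5.44 to 6.03 in the others, against 5.68 to 6.02 at 0 hr, and in lung 3.61 to 5.06 against 3.37 to 5.04. Against 6 hr, 38 of 45 genes were lower in brain (median -2.35), 43 in heart (median -2.74) and 2 in lung (median -2.48), where 4.61%, 17.4% and 0.123% of all genes were lower, the lung count being 18 without 6 hr replicate 4, 27 without 6 hr replicate 3 and 0 without 6 hr replicate 1. Without the libraries that stood apart these counts were 42 in brain, 18 in lung and 44 in heart. In those fits 3.9%, 0.26% and 24.4% of all genes were lower. Against 0 hr, 3 genes were higher in brain, Irf8 (3.11), Zbp1 (2.29) and Ifitm3 (1.54), where 8.11% of all genes were called higher. In heart 3 were higher, Irf8 (2.22), Irf7 (1.33) and Ifitm3 (1.22), and 1 was lower, Samd9l (-0.72), where 3.08% of all genes were called higher and 1.11% lower. In lung 1 was higher, Irf7 (2.76, SE 0.67, adjusted p = 0.045), where 0.428% were called higher.

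The libraries at 48 hr were not uniform. Ifitm3 in brain ran over 8.89, 8.20, 11.01, 10.67, 11.62 and 11.65 log2 CPM in replicates 1, 2, 3, 4, 6 and 7, against 7.83 to 8.77 at 0 hr. Replicates 1 and 2, of series 2, lay near the 0 hr level (a within-series difference of 0.24), while replicates 3 and 4, of series 1, were 2.07 above it. Fibroblast markers differed between the same libraries, summing to 482 and 319 CPM in replicates 1 and 2 and to 1786, 2350, 4628 and 4753 in replicates 3, 4, 6 and 7, against 322 to 999 at 0 hr, and Dcn was called higher. Macrophage markers ran the other way, at 610 and 474 CPM in replicates 1 and 2 and 78.6, 330.5, 56.6 and 121 in the others. The part of these cells in the level of Ifitm3 was not tested. Irf8 in heart showed the same spread, at 3.90, 4.28, 7.30, 4.25, 7.61 and 7.35 against 2.92 to 4.25 at 0 hr, with 3 libraries about the highest 0 hr library and 3 far above. The 3 higher calls in heart at 48 hr were lost when any 1 of the 5 libraries at 0 hr was left out, the lower call on Samd9l when any but replicate 5 was, and the brain count was 1 without 0 hr replicate 1. The lung call on Irf7 was lost without 0 hr replicate 1, 2 or 3.

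At 72 and 168 hr edgeR called 0 of the 45 genes in any tissue. At 72 hr the medians of the list stood at 0.04 (brain), -0.45 (lung) and -0.11 (heart), 2, 8 and 1 genes had an unadjusted p under 0.05, and 3.53%, 0.193% and 0.275% of all genes were called. DESeq2 called 1 lower in lung and 0 elsewhere at 72 hr. At 168 hr the medians were -0.14, 0.02 and -0.02, 0 genes had an unadjusted p under 0.05, and 0%, 0.0117% and 0% of all genes were called, with 0 of the list by DESeq2.

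**Figure D4:**
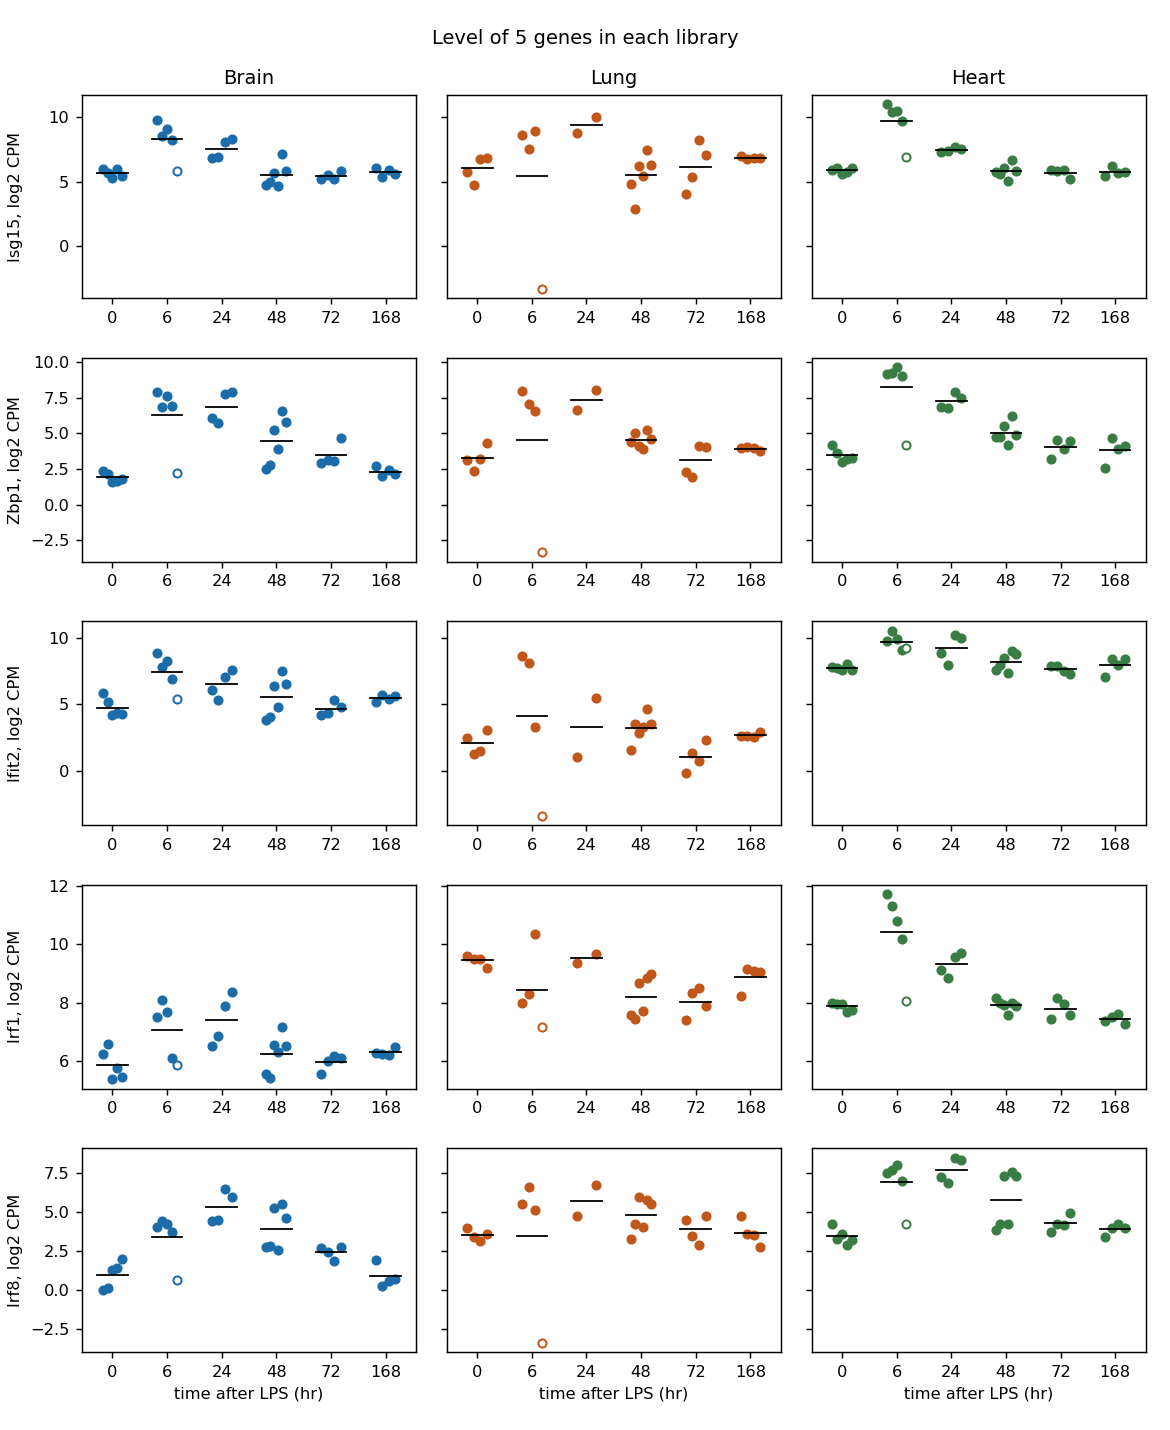
Log2 CPM of Isg15, Zbp1, Ifit2, Irf1 and Irf8 in each library against hours after LPS, by tissue. Isg15 is highest at 6 hr in heart (9.74 to 11.04 in 4 of 5 libraries), Irf8 in brain is at 4.43 to 6.48 at 24 hr, and lung Irf1 is at 9.20 to 9.58 before LPS.

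The response was compared between tissues by an interaction term, the change from 0 hr in 1 tissue minus that in another. Between brain and heart edgeR called 0 of 45 genes at 6, 24 and 48 hr, with 5, 1 and 0 at an unadjusted p under 0.05, where 0.636%, 0.327% and 0.463% of all genes were called. DESeq2 also called 0 at these times, and without the libraries that stood apart 1 gene, Irf1, was called at 6 hr (-1.57, a smaller rise in brain). Between lung and heart 2 genes at 6 hr had a larger change in lung and 5 a smaller one, where 18.1% of all genes were called, with 0 called at 24 hr (1.67%) and 48 hr (1.13%). Tissues share mice if the mouse is inferred from file names. With that mouse as a block 4 genes were larger and 5 smaller in lung at 6 hr, 1 was larger at 24 hr and 3 at 48 hr. Without the libraries that stood apart 2 were larger and 8 smaller at 6 hr. Between brain and lung 1 gene was larger and 1 smaller in brain at 6 hr (13.3% of all genes called), 1 was larger at 24 hr (3.85%) and 0 at 48 hr (3.54%). With mouse as a block 2 were larger and 3 smaller at 6 hr, 1 larger and 1 smaller at 24 hr, and 0 larger and 2 smaller at 48 hr. In the main fit, without the block, the shares of the list called are at or below those of all genes. For the fits with the block or without the libraries that stood apart, the share of all genes was not computed. Their counts therefore cannot be set against it.

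The smallest adjusted p was that of Irf1, a transcription factor known to be induced by interferon gamma and by LPS. In heart its log2 CPM went from 7.98, 7.94, 7.97, 7.70 and 7.76 at 0 hr to 11.71, 11.30, 10.78, 10.19 and 8.07 at 6 hr (2.84, SE 0.39, adjusted p = 2.2e-05), all above the 0 hr libraries. In brain it went from 6.24, 6.58, 5.38, 5.77 and 5.45 to 7.52, 8.08, 7.68, 6.10 and 5.87 (1.49, SE 0.37, adjusted p = 0.014). In lung it went from 9.58, 9.51, 9.49 and 9.20 to 7.99, 8.29, 10.34 and 7.18 (-0.53, SE 0.64, adjusted p = 0.66). The groups overlapped in brain, and of the 4 lung libraries at 6 hr, replicates 1 and 2 were below all 0 hr libraries and replicate 3 was above them. The 7.18 of replicate 4 rests on 5 counts and its low scaling factor (4.14 by total count alone). Without the libraries that stood apart the changes were 3.25 in heart, 1.86 in brain and -0.07 in lung (SE 0.60). The change in lung minus that in heart was -3.36 (SE 0.60, adjusted p = 9.9e-05), between -4.44 and -3.01 with any 1 library left out, and called in 18 of 18 such fits (-3.17 with mouse as a block). The change in brain minus that in lung was 1.75 (SE 0.59, adjusted p = 0.037) and was called in 6 of 18.

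Ifit2 differed the other way, with a change in lung 3.46 larger than in heart (SE 0.84, adjusted p = 0.0026; 18 of 18 fits) and 2.42 larger than in brain (-2.42 for brain minus lung, SE 0.82, adjusted p = 0.038; 10 of 18). With mouse as a block these were 3.08 and -2.32, the latter no longer called (adjusted p = 0.058). Its 0 hr level was 1.30 to 3.11 log2 CPM in lung against 7.61 to 8.05 in heart. Lung 6 hr replicates 1 and 2, the libraries with high Ifit2, held cardiomyocyte markers at 760 and 2295 CPM. Lung libraries at 0 hr held 45.8 to 152 CPM of these markers. Neutrophil markers summed to 4131 and 1900 CPM in replicates 1 and 2, against 45.6 to 211 at 0 hr. Macrophage markers summed to 3539 and 572 CPM, against 293 to 727. Alveolar epithelial markers summed to 13043 and 4333 CPM, against 2085 to 8859. Replicate 3, with lower Ifit2, held 3495, 428 and 7630 CPM of these last 3 sets and 76.3 CPM of cardiomyocyte markers. The part of these cells in the level of Ifit2 was not tested. Bst2, which tethers budding virions to the cell surface, had a smaller change in lung than in heart (-2.47, SE 0.80, adjusted p = 0.024; 16 of 18), with 10.71, 10.33, 11.06 and 9.79 log2 CPM in lung and 9.04, 9.09, 8.61, 8.82 and 9.00 in heart at 0 hr. Isg15 (-2.36, 13 of 18), the kinase Eif2ak2 (-1.80, 12 of 18) and Dhx58 (-1.80, 7 of 18) had smaller changes in lung than in heart, and Samd9l a larger one (2.27, 10 of 18). With mouse as a block the call on Isg15 was lost (-1.74, adjusted p = 0.068). Samd9l turned to -0.11 without lung 6 hr replicate 1, which stood at 6.55 log2 CPM against 0.63, 3.12 and -3.35 in the others. At 24 hr the change of Isg20, an exonuclease, was 3.11 larger in brain than in lung (SE 0.95, adjusted p = 0.046) and called in 5 of 15 fits, and it was 2.42 (adjusted p = 0.11) with mouse as a block. RLE scaling gave 3 larger and 3 smaller changes between lung and heart at 6 hr and moved the median of all genes by 0.160, so that the number of smaller changes depended on the scaling.

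Before LPS the list was higher in the heart pulldowns than in those of the other tissues. Endothelial markers summed to 10105 to 11751 CPM in heart, 1796 to 3730 in brain and 6504 to 13669 in lung at 0 hr. The part of these shares in the level of the list was not tested. At 0 hr a tissue was set against the average of the other 2. In heart 31 of 45 genes were higher and 0 lower (median 1.53, 2.88-fold), where 20.4% of all genes were called higher and their median was -0.25. In brain 0 were higher and 25 lower (median -0.93), where 15.8% of all genes were called lower and their median was 0.34. In lung 4 were higher and 15 lower (median -0.38), where 24.1% of all genes were called higher and 27.4% lower and the median of all genes was also -0.38, so the median lung ISG did not stand apart from the median gene. RLE scaling moved the median of all genes by 0.300 in brain, -0.183 in lung and -0.128 in heart. Without the libraries that stood apart, none of which is a 0 hr library, 29 were lower in brain, 4 higher and 16 lower in lung and 38 higher in heart. In lung 9 were lower without 0 hr replicate 2 or 3, and in brain 4 were higher without lung 0 hr replicate 4. With mouse as a block 24 were lower in lung and 3 higher in brain. The share of all genes was not computed for the fits with the block or without the libraries that stood apart.

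The genes highest in heart at 0 hr were Rsad2 (4.84, SE 0.69), Ifit2 (4.30), Phf11d (3.84), Tgtp2 (3.27) and Samd9l (3.24), all on the log2 scale. Rsad2 stood at 8.20, 8.03, 8.03, 8.49 and 8.17 log2 CPM in heart against 3.97, 3.89, 2.62, 2.56 and 3.37 in brain and 3.40, 2.56, 4.21 and 2.42 in lung. No heart library came near those of the other tissues. The 4 genes higher in lung were Bst2 (2.73, SE 0.46), Irf1 (2.53, SE 0.34), Eif2ak2 (1.98) and Irf8 (1.18), and the lowest in lung were Ifit2 (-4.18, SE 0.65), Samd9l (-3.88) and Tgtp1 (-2.79). Eif2ak2, the RNA-activated kinase PKR, varied widely in lung, at 6.16, 7.82, 8.02 and 4.98 log2 CPM against 5.26 to 5.89 in heart, so that the groups overlapped in range.

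Per kilobase of exon the levels before LPS spanned a wide range within the list. Ifitm3 had the highest median in brain, 9.27 log2 RPKM, and in heart, 9.85, and Bst2 in lung, 10.67. Isg15 lay at 6.06 in brain, 6.31 in heart and 6.65 in lung, levels that were close to each other. Oas3, at -4.69 in brain, -2.67 in lung and -1.90 in heart, and Mx1, at -2.12, -3.52 and -1.61, were at the low end.

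**Figure D5:**
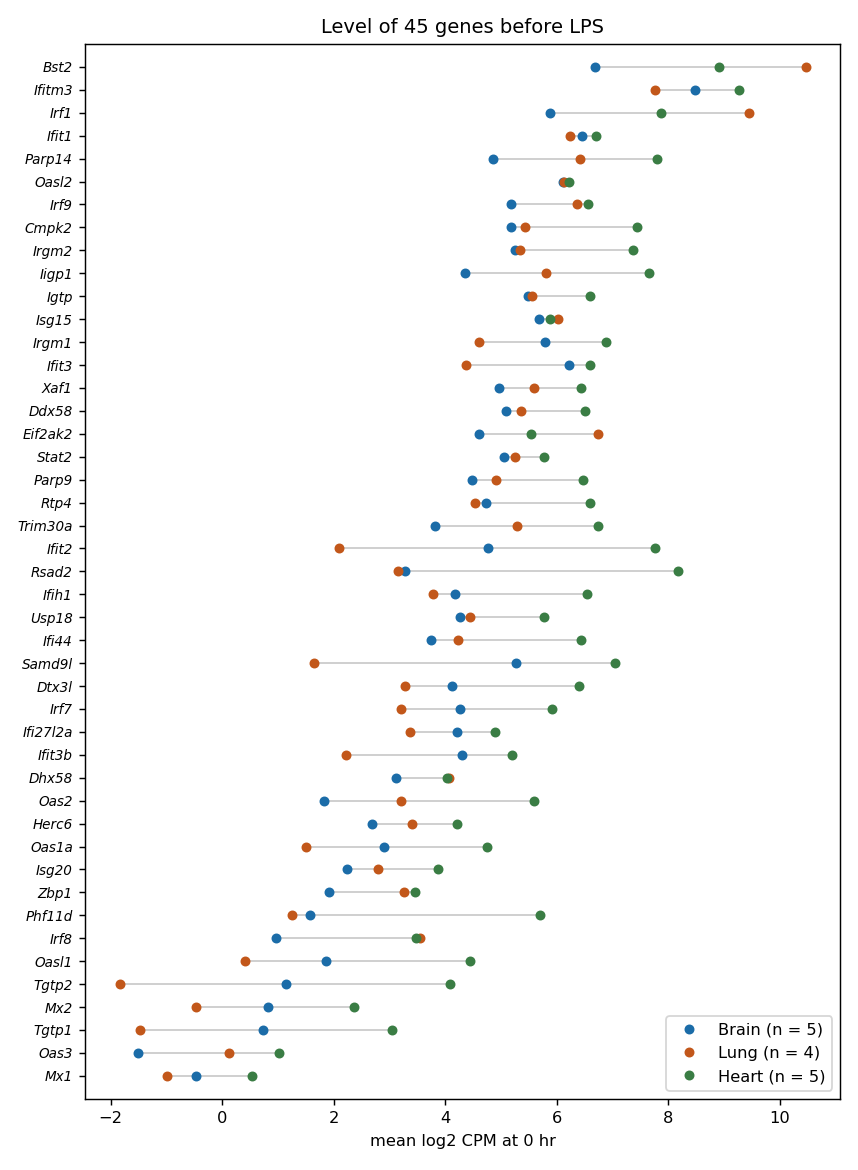
Mean log2 CPM at 0 hr of each of the 45 ISGs in brain, lung and heart, 1 dot per tissue. Heart is higher in 31 of the 45 by the test, Rsad2 among them (8.03 to 8.49 log2 CPM), while Bst2 and Irf1 are highest in lung.

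Other genes of the interferon pathway were counted from a separate list of 39, of which 29 could be tested in each tissue. At 6 hr 11 were higher and 1 lower in brain (median 0.51), 5 and 0 in lung (median 0.84) and 19 and 2 in heart (median 1.44). Of all genes 4.21% were called higher and 2.23% lower in brain, 2.56% and 2.27% in lung and 22.4% and 20.3% in heart. Without the libraries that stood apart the counts were 13 and 1, 6 and 0, and 20 and 3. The shares of all genes were then 7.63% and 6.71% in brain, 2.38% and 1.57% in lung and 27.8% and 30.5% in heart. Cxcl9 and Cxcl10 encode chemokines that attract T cells through Cxcr3. Cxcl11 is annotated as a polymorphic pseudogene and overlaps a predicted gene on the opposite strand by 1582 exon bases, so its count is uncertain. Cxcl9, Cxcl10 and Cxcl11 were higher in all 3 tissues. Their log2 fold changes were 7.78, 7.45 and 5.92 in brain, 6.50, 7.11 and 9.32 in lung and 5.09, 7.88 and 9.12 in heart. The feedback inhibitor Socs3 rose in all 3 by 5.33, 2.74 and 4.07, and Socs1 in brain by 2.67 and in heart by 6.55. Among the kinases and STATs, Stat3 rose by 1.58 in brain and 1.85 in heart, and Jak1 and Jak2 rose in heart by 0.96 and 1.44. Of the inducing sensors and their kinases, Tlr3 rose by 1.15 in brain and 1.72 in heart, Tlr4 by 1.17 in brain, and Ikbke by 2.08, 3.22 and 4.99 in brain, lung and heart.

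Of 6 receptor subunits at 6 hr, 2 were higher and 1 lower in heart, 1 was lower in brain, and in lung edgeR called 0 (0 at an unadjusted p under 0.05). Of all genes 22.4% were called higher and 20.3% lower in heart, and 2.23% lower in brain. Ifngr1 and Ifngr2 of the interferon gamma receptor rose in heart by 1.20 and 0.97, Ifnar1, a chain of the type I receptor, fell by 0.45 in heart, and Il10rb fell by 1.31 in brain. The heart counts were 3 higher and 2 lower without replicate 5, with Ifnar2 (0.54) and Ifnlr1 (-0.93) added. In that fit 27.8% of all genes were called higher and 30.5% lower. Of the 10 interferons listed, interferon beta (Ifnb1) in heart was the only one with enough counts to be tested within a tissue, 2.75 higher at 6 hr, at very low levels (-3.35 to -1.94 log2 CPM at 0 hr and -3.35 to 0.63 at 6 hr). At 24 hr 11 genes of this list were higher and 1 lower in brain, 3 and 0 in lung and 13 and 0 in heart, where 6.52%, 0.363% and 9.07% of all genes were called higher and, in brain, 4.66% lower. At 48 hr they were 9 and 1 in brain, 0 and 0 in lung by edgeR (6 at an unadjusted p under 0.05) and 3 and 0 in heart, where 8.11%, 0.428% and 3.08% of all genes were called higher and, in brain, 6.12% lower. The heart counts were 15 higher and 2 lower at 24 hr and 10 and 0 at 48 hr without replicate 5 at 6 hr. There 13.3% of all genes were called higher and 12.7% lower at 24 hr, and 5.37% higher at 48 hr.

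Markers of other cells moved over the same hours, and their part in the results above was not tested. Endothelial markers were lower in heart at 6 hr, 9 of 10, in brain 4 of 10 with 1 higher, and in lung 2 of 10, where 20.3%, 2.23% and 2.27% of all genes were called lower. Without the libraries that stood apart 9, 5 and 1 were lower. Their summed level in heart was 10105 to 11751 CPM at 0 hr and 3136 to 5608 at 6 hr in 4 libraries, while replicate 5, in which the ISGs were low, stood at 10817. Neutrophil markers were higher in heart at 6 hr (7 of 8 tested, summing to 0.93 to 1.55 CPM at 0 hr and 0.96 to 62.6 at 6 hr) and in lung (6 of 10, 45.6 to 211 CPM at 0 hr and 28.9, which is 1 count in replicate 4, to 4131 at 6 hr; 7 of 10 without replicate 4). In brain 1 of 9 was higher at 6 hr (6.2 to 56.3 CPM at 0 hr, 7.8 to 414 at 6 hr), 3 of 9 without replicate 6, and 5 of 9 at 48 hr, when 8 of 10 macrophage or microglia markers were also higher. In heart at 48 hr 7 of 8 neutrophil and 4 of 10 macrophage markers were higher, the time at which Irf8, Irf7 and Ifitm3 were the ISGs called. In replicates 3, 6 and 7, those with high Irf8, neutrophil markers summed to 19.8, 15.6 and 13.6 CPM. In replicates 1, 2 and 4, with lower Irf8, the sums were 48.9, 37.4 and 38.7 CPM. Macrophage markers summed to 34.7, 17.4 and 40.6 CPM in replicates 3, 6 and 7. They summed to 217.7, 376.9 and 189.5 CPM in replicates 1, 2 and 4. The neutrophil markers Ly6g, Camp and Mmp8 were at 0 counts in all heart libraries at 0 hr. Of the plasmacytoid dendritic cell markers, which include Bst2 itself, Ccr9 and Klk1 were at 0 in heart at 0 hr and Ccr9 at 6 hr.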

How the data were processed

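Gene counts were deposited per sequencing run. By the study's methods and the submitters' processing notes, the authors aligned reads with STAR 2.4.2 to mm10 and counted them per gene with HTSeq 0.6.1, so the deposited values are raw counts with no normalization. The annotation release and the strand setting are not given in the sources used here. For the tests the study used batch correction and limma-voom, and those values were not used here.

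The counts of 217 runs were summed to 98 libraries by tissue, time and replicate. Of these, 18 with under 3% of reads on genes (1.73% to 2.75%, all of library series 3) were left out and 80 kept. Rows that name no gene held 30.0% to 98.3% of a library's counts and stayed out of library sizes and tests. Tissue, time and replicate came from the labels. Library series and mouse were inferred from file names, since the labels name neither. Replicate numbers did not pair libraries: the deviations of same-numbered libraries of a tissue at other times had a median correlation of 0.000 over 151 pairs, with 46 over 0.1. Libraries of other tissues with the same inferred mouse had a median of 0.057 over 74 pairs, with 27 over 0.1. Those of other mice at the same time had -0.021 over 292 pairs, with 54 over 0.1. The main fits hold no term for mouse.

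Tests were run in R 4.3.3 with edgeR 4.0.16: filterByExpr, TMM scaling, quasi-likelihood F tests, two-sided, a term for library series and Benjamini-Hochberg adjustment over all genes tested, at a threshold of 0.05. Each tissue had 1 fit over its 6 time points, and differences between tissues and levels at 0 hr came from 1 fit of all 3 tissues. SE was computed as |log2 fold change|/sqrt(F). Levels were computed from the counts as log2 CPM, with 2 as prior count. All 45 genes passed the filter in each tissue. Scripts were tested on simulated data with 200 changed genes. Alternatives were DESeq2 1.42.0, voom in limma 3.58.1, RLE scaling, no low-count filter, no series term, replicate or mouse as a block, all libraries, and each library of groups of 2 to 5 left out. In the fit of all 3 tissues, leaving 1 out kept the gene filter, scaling factors and trended dispersion estimated with every library. Those fits are therefore not fully independent of the library left out. After seeing the data, a fit without 3 libraries labelled 6 hr was added, and levels of 2 genes in lung scaled by total count alone. Lists of interferon pathway genes and cell markers were written by hand. The values of 1 gene of the pathway list are not reported here. The 45 genes, their roles and these lists were chosen with earlier results of these data known. The depth, 284457 to 43417945 counts per library, limits what low genes can show. Promoter sequences are RefSeq's for GRCm38.p6. Figures were drawn with matplotlib 3.10.9 in Python 3.11.15.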

Additional observations from a re-analysis of the deposited data

Results flagged for a closer look

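Levels of 4 measures, the mean of the 45 ISGs and the genes Irf1, Irf8 and Usp18, were checked in each group of 4 to 10 libraries for a library far from the others by Dixon's gap ratio. Of 68 groups, 7 had one, where chance gives about 5% of groups. The mean level of the list was 6.572 log2 CPM in heart 6 hr replicate 5, against 8.29 to 8.90 in the other libraries. Brain 6 hr replicate 6 was not flagged on this measure. Irf8 was 0.6433 log2 CPM in brain 6 hr replicate 6, 4.26 in heart 6 hr replicate 5 and -3.354 in lung 6 hr replicate 4, which are the 3 libraries of series 1 at 6 hr. Irf1 was 8.222 in lung 168 hr replicate 1, against 9.05 to 9.17 in the others. Usp18 was 7.488 in heart 24 hr replicate 4 and 6.29 in lung 0 hr replicate 4.

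Differences between tissues in the response to LPS passed the interaction test for 7 of the 45 genes between lung and heart at 6 hr, where 18.1% of all genes passed it, so the share of the list was not above that of all genes. Irf1 (-3.356), Bst2 (-2.465), Isg15 (-2.363), Eif2ak2 (-1.801) and Dhx58 (-1.801) changed less in lung than in heart, and Ifit2 (3.455) and Samd9l (2.27) more, on the log2 scale. Between brain and lung Irf1 (1.751) changed more and Ifit2 (-2.421) less in brain at 6 hr, and Isg20 (3.106) more in brain at 24 hr.

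The 18 libraries left out for a low share of reads on genes are 1 per tissue and time point, and their ISG counts were low. Their summed level of the 45 ISGs was 135.7 CPM in brain at 0 hr, 676.0 at 6 hr and 228.6 at 24 hr. In heart it was 195.1 CPM at 0 hr, 1023 at 6 hr and 464.5 at 24 hr. In lung it was 1.32 CPM at 0 hr, 51.55 at 6 hr and 174.0 at 24 hr, where the first rests on 1 count and the second on 8 counts with 44 genes at 0.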

How the results depend on the processing

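Of 468 counts of higher or lower ISGs recomputed under an alternative other than leaving 1 library out, 400 stayed within 1.5 times of the reported count and 68 moved further. The cause of each move was not tested. Of these alternatives, the share of all genes called was computed only for fits within a tissue without the libraries that stood apart. In brain the 13 higher genes at 24 hr were 20 by DESeq2, 31 with no low-count filter, 29 with no series term and 23 without the 3 libraries of series 1 labelled 6 hr. The 3 higher at 48 hr were 9 with no filter, 5 with no series term and 5 without the 3 libraries, and the 0 higher at 72 hr were 3 with no filter. The 0 lower at 24 against 6 hr were 17 by DESeq2, 24 with no filter, 10 with all libraries and 25 without the 3, and the 38 lower at 48 against 6 hr were 22 with no series term. In lung the 12 higher at 6 hr were 35 by DESeq2, 29 with RLE scaling and 21 without the 3. The 2 higher at 24 hr were 1 by voom and 1 with all libraries. The 1 higher at 48 hr was 2 by DESeq2, 0 by voom, 2 with no filter and 0 with all libraries. The 0 lower at 72 hr were 1 by DESeq2 and 1 with no filter, and the 0 lower at 24 against 6 hr were 3 by DESeq2. The 2 lower at 48 against 6 hr were 35 by DESeq2, 25 with RLE, 23 with no filter, 14 with no series term and 18 without the 3. In heart the 3 higher at 48 hr were 0 by voom and 5 with no filter. The 1 lower at 48 hr was 0 by voom, with RLE, with no series term and with all libraries. The 0 higher at 24 against 6 hr were 1 with no series term, and the 23 lower were 36 without the 3.

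For differences in response between brain and lung at 6 hr, the 1 larger was 2 with mouse as a block and the 1 smaller was 4 by DESeq2, 3 with RLE, 0 with no series term and 3 with mouse as a block. At 24 hr the 1 larger was 0 with RLE and with no series term, and the 0 smaller were 1 with mouse as a block. At 48 hr the 0 larger were 1 without the 3 libraries, and the 0 smaller were 1 by DESeq2, 1 with RLE and 2 with mouse as a block. Between brain and heart at 6 hr the 0 smaller were 1 without the 3. Between lung and heart at 6 hr the 2 larger were 5 by DESeq2 and 4 with mouse as a block, and the 5 smaller were 3 with RLE and 8 without the 3. The 0 larger at 24 and 48 hr were 1 and 3 with mouse as a block. At 0 hr mouse as a block gave 3 higher in brain in place of 0 and 24 lower in lung in place of 15.

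With the replicate number as a block, which does not pair these libraries, the higher genes were 4 at 24 hr in brain, 0 at 24 and 48 hr in lung, 11 at 24 hr and 0 at 48 hr in heart. The lower genes with this block were 7 at 24 against 6 hr in brain, 0 at 48 against 6 hr in lung and 0 at 48 hr in heart, and 0 were smaller in brain than in lung at 6 hr.

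With 1 library left out in turn, the number of higher genes ran from 1 to 3 in brain at 48 hr, from 5 to 27 in lung at 6 hr, from 0 to 2 in lung at 24 hr, from 0 to 1 in lung at 48 hr and at 24 against 6 hr, from 16 to 21 in heart at 24 hr and was 0 in each at 48 hr in heart. The number of lower genes ran from 0 to 25 at 24 against 6 hr in brain, from 0 to 2 at 6 hr, 0 to 3 at 24 against 6 hr and 0 to 27 at 48 against 6 hr in lung, from 0 to 36 at 24 against 6 hr in heart and from 0 to 1 at 48 hr in heart. Larger differences ran from 0 to 5 at 6 hr and 0 to 1 at 24 hr for brain against lung, and 1 to 5 at 6 hr, 0 to 2 at 24 hr and 0 to 4 at 48 hr for lung against heart. Smaller ones ran from 0 to 5, 0 to 2 and 0 to 3 at 6, 24 and 48 hr for brain against lung, 0 to 1 at 6 hr for brain against heart, and 2 to 9 at 6 hr for lung against heart. At 0 hr higher genes in brain ran from 0 to 4 and lower genes in lung from 9 to 20. Groups of 6 libraries were not tested in this way. The difference of Samd9l between lung and heart at 6 hr ran from -0.1129, reversed, without lung 6 hr replicate 1 to 3.704 without lung 0 hr replicate 4. For single genes called, 2831 values kept their direction and call with 1 library left out and 374 kept the direction only. Leaving out series 3 is the same as the 3% rule. Depth was lowest in lung at 6 hr, where 1 library had under 1000000 counts on genes.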
